A study of Mus musculus with 12 samples.

Results

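H3K27me3 was profiled by ChIP-chip in mouse 46c ESCs expressing tSBE6-Vp64, an activator targeted to the near Shh enhancer SBE6, and compared with 46c ESCs expressing eGFP. The comparison used 4 of the 12 arrays of the series, R1 and R2 titled tSBE6-Vp64 H3K27me3 against R1 and R2 titled eGFP H3K27me3_BioRep2, all hybridised on the same slide. tSBE6-Vp64 is a TALE DNA-binding protein designed against SBE6 and fused to the transcriptional activator Vp64, with eGFP made from the same transcript after a 2A peptide. Both populations were 46c ESCs transfected with Lipofectamine 2000, and the study's methods describe sorting of transfected cells on eGFP. The other 8 arrays held ESCs with tShh-Vp64 (targeted to the Shh promoter), tSBE2-Vp64 (SBE2) or tSBE(6+2)-Vp64 (both enhancers), and NPCs. Titles of the eGFP, tShh-Vp64 and tSBE2-Vp64 arrays carry BioRep2, whereas those of tSBE6-Vp64 carry no such label. The labels give the eGFP arrays the same biological replicate and do not say whether the tSBE6-Vp64 arrays share a culture, and the authors combined R1 with R2. Each condition was therefore taken as 1 sample read on 2 arrays, and the difference between the conditions has no replicate check. An exact two-sided permutation test of 2 arrays against 2 cannot go below p = 0.333 and none was run.

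H3K27me3 is deposited by polycomb repressive complex 2 and marks silent developmental genes, above all those with CpG-rich promoters. Shh encodes a secreted morphogen that patterns the neural tube and limbs, and in mESCs the gene is silent and covered by polycomb marks. Its brain enhancers lie in the gene desert upstream, with SBE6 the nearest to the gene. Recruiting Vp64 to SBE6 asks what an activator at a distant enhancer does to chromatin at the enhancer and at its target gene.

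Values are log2 ratios of the Cy5 over the Cy3 signal, centred on the median of each array, and a difference is tSBE6-Vp64 minus eGFP on that scale. The labels assign Cy3 to ChIP DNA and Cy5 to input DNA, whereas the authors' deposited log2 ChIP/input ratios followed Cy5 over Cy3, with correlations across probes of 0.935 in tSBE6-Vp64 and 0.928 in eGFP ESCs. Ratios here run the way of the deposited ones. Should the dye labels be right instead, all signs would turn. Probes were averaged in tiles of 5 kb with at least 5 probes, which gave 963 tiles. A tile was called by size when the means differed by at least 0.5 and both arrays of one condition lay beyond both of the other, called apart below. In bulk chromatin, fewer cells carrying the mark and less of it per cell cannot be told apart.

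The sequences below are array probes of 60 bases that stand for loci with large differences, and for the position of SBE6. Each is the plus strand of mm9, read from the reference genome at the probe's coordinates, with every CpG in capitals. Except at SBE6, each is the probe outside annotated UTRs, with its arrays apart, whose difference was nearest to the mean of its tile or 1 kb bin.
Shh intron, chr5:28787009-28787068: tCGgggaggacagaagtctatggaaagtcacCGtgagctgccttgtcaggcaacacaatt
Nkx2-2 intron, chr2:147006585-147006644: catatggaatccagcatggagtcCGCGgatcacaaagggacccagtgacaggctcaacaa
Upstream of the Fgf15 TSS, in an exon of Gm17685, chr7:152082058-152082117: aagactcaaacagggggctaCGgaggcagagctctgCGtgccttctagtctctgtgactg
Downstream of Sox4, chr13:29039256-29039315: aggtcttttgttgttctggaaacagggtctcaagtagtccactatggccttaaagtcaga
Upstream of Igf2, in an exon of Igf2as, chr7:149856051-149856110: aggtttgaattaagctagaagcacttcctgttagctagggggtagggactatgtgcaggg
Upstream of Sox6, chr7:123187307-123187366: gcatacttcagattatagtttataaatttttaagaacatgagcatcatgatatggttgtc
Upstream of Shh, chr5:28801860-28801919: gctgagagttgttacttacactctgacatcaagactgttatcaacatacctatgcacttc
SBE6, chr5:28893613-28893672: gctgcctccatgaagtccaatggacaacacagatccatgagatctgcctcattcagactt
The 3 probes with lower values in tSBE6-Vp64 ESCs, from Shh, Nkx2-2 and Fgf15, each hold 2 CpGs. The probes with higher values, downstream of Sox4 and upstream of Igf2, Sox6 and Shh, hold 0. On the whole array, 45.4% of the 48316 probes hold at least 1 CpG. Among the probes of tiles called lower the share was 75.9%, against 39.0% in tiles called higher. Called tiles not shown include 1 in Nes and 1 upstream of Odf3b, lower with 0.80 and 1.22 CpGs per 100 bp. Another, at Kif18b, was higher with 2.08. The median over all tiles was 0.86.

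The array held 39 tiled regions, of which the one around Shh, En2 to Mnx1, took 260 of the 963 tiles. On the 4 arrays, 91.4% to 94.2% of probes were well above background in Cy3 and 86.0% to 88.7% in Cy5. Across tiles the arrays of one condition correlated at 0.990 (tSBE6-Vp64) and 0.989 (eGFP), against 0.948 to 0.955 between conditions, and the median SD between R1 and R2 was 0.07. The labelled cell type was checked against the promoters of marker genes. Among the listed markers, the ESC genes Pou5f1, Nanog and Fgf4 lay below 0 on all 4 arrays, whereas the neural progenitor genes Nes and Pax6 lay above 0 on all 4. Other pluripotency genes did not all follow, as Sox2 was above 0 on all 4 arrays and Klf4 on both eGFP arrays (0.14 and 0.08). Zfp42 and Sox1, also listed as markers, were not among the promoters with enough probes.

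Over the Shh gene body, the ratio was lower in tSBE6-Vp64 than in eGFP ESCs. It was 0.93 on R1 and 1.01 on R2 of tSBE6-Vp64, against 1.70 and 1.32 in eGFP ESCs, so that the arrays were apart and the difference was -0.55, with a pooled SD between arrays of 0.19. In mm9 the gene spans chr5:28783355-28793641 and is transcribed towards lower coordinates. Within 5 kb of its TSS the ratio was 0.95 and 0.99 in tSBE6-Vp64 and 1.44 and 1.07 in eGFP ESCs, a difference of -0.29 with a pooled SD of 0.18. Here too both tSBE6-Vp64 arrays were below both eGFP arrays, but R2 of eGFP exceeded the nearer tSBE6-Vp64 array by little, and without R1 of eGFP the difference was -0.10. Without R2 of eGFP it was -0.47. The gene body differed by -0.36 and -0.73 in the same settings, so that at both windows the size of the difference depended on which eGFP array was kept. Of the 104 gene body probes read on all 4 arrays, 52 were apart and lower by at least 0.5 and 0 apart and higher. Over all 45932 such probes the shares were 13.7% and 11.3%. Around the TSS these were 32 (29.4%) and 5 (4.59%) of 109. The printed Shh probe had 1.47 and 1.36 in tSBE6-Vp64 and 1.82 and 2.36 in eGFP ESCs. On the same slide, the gene body had 0.97 in tShh-Vp64 and 1.28 in tSBE2-Vp64 ESCs. Within 5 kb of the TSS these populations had 0.90 and 1.07.

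Among the 963 tiles, 12 (1.25%) were called higher and 9 (0.935%) lower in tSBE6-Vp64 ESCs, 21 (2.18%) in all, and the tile over the Shh exons and introns, from 28785000 to 28789999, had the third lowest difference of all. Its values were 1.07 and 1.10 in tSBE6-Vp64 and 1.89 and 1.61 in eGFP ESCs, a difference of -0.67. The 2 arrays of tSBE6-Vp64 nearly coincided and those of eGFP lay well above them. The tile with the Shh promoter, next to it, had 0.99 and 1.07 against 1.64 and 1.18 and differed by -0.38. The tile downstream, over the 3′ end, did not separate the conditions, with 0.92 and 0.94 against 1.20 and 0.85. In the populations not compared here, the tile from 28785000 had 1.13 in tShh-Vp64 and 1.43 in tSBE2-Vp64 ESCs.

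**Figure D1:**
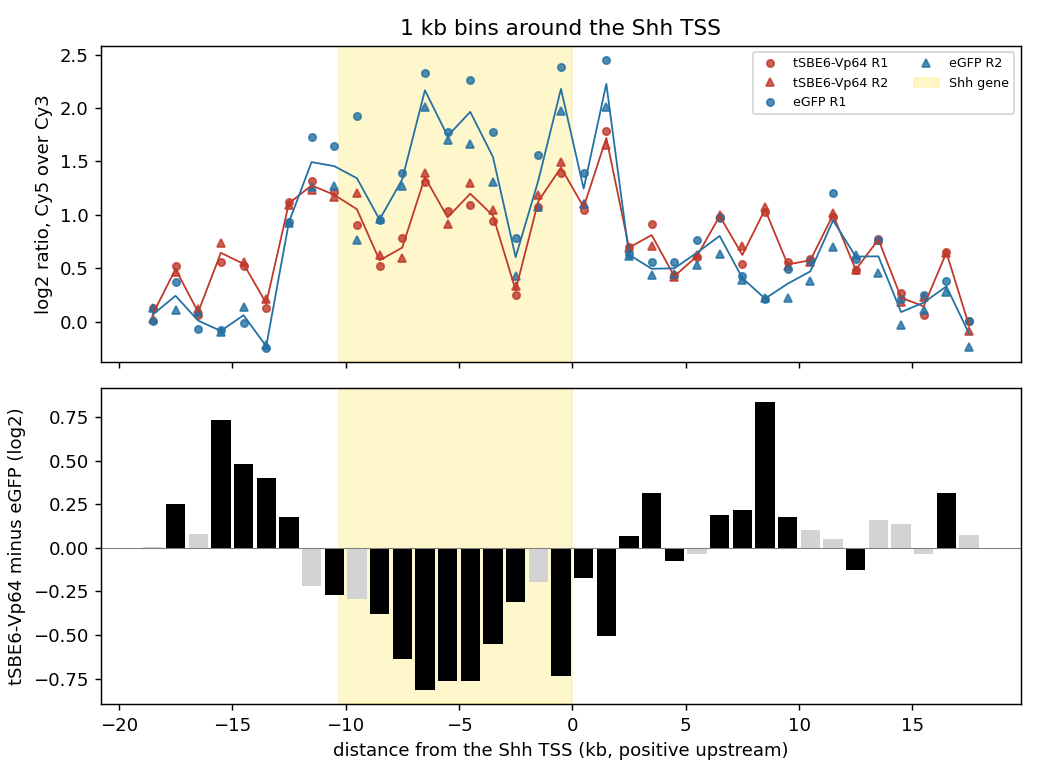
Log2 ratio (Cy5 over Cy3) of each array in 1 kb bins within 20 kb of the Shh TSS (top, lines join the means of 2 arrays) and the difference, tSBE6-Vp64 minus eGFP (bottom, black where the arrays were apart, grey where they overlapped). All 11 bins over the gene are below 0, down to -0.81, and the highest bin, 0.84, lies 8 to 9 kb upstream.

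At 1 kb resolution, all 11 bins from the TSS to the end of Shh were lower in tSBE6-Vp64 ESCs, 9 of them with the arrays apart. Over all 4391 bins of the array with at least 3 probes, the arrays were apart with a lower value in 34.4% and with a higher value in 26.6%. Differences of at least 0.5 with the arrays apart made up 5.72% (lower) and 4.01% (higher) of them. The lowest value over the gene was 6 to 7 kb into it, where tSBE6-Vp64 had 1.31 and 1.39 and eGFP 2.33 and 2.01, a difference of -0.81. The first kilobase of the gene, with 1.39 and 1.50 against 2.39 and 1.97, differed by -0.74. The bin 1 to 2 kb upstream of the TSS was lower as well, with 1.79 and 1.65 against 2.45 and 2.01. These were the bins with the highest ratios in eGFP ESCs.

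Some bins further out in the flanks of Shh went the other way, whereas those 0 to 1 and 1 to 2 kb upstream were lower (-0.17 and -0.51). The bin 8 to 9 kb upstream of the TSS had 1.03 and 1.07 in tSBE6-Vp64 and 0.21 and 0.22 in eGFP ESCs, a difference of 0.84 with a pooled SD of 0.02. In tShh-Vp64 and tSBE2-Vp64 ESCs that bin had 0.59 and 0.60. Beyond the 3′ end, the bin 15 to 16 kb from the TSS had 0.56 and 0.73 against -0.08 and -0.09, which is 0.73 higher. The next bins towards the gene were 0.48 and 0.40 higher. Of the 37 bins within 20 kb of the TSS, 13 were apart and lower and 12 apart and higher, and 12 had a mean of at least 1 in each condition. The highest bin reached 2.23 in eGFP and 1.72 in tSBE6-Vp64 ESCs, so the profile over Shh was flatter in tSBE6-Vp64 ESCs. Over all tiles the ratios ran from -1.34 to 2.39 in tSBE6-Vp64 and from -1.32 to 2.64 in eGFP ESCs. With 1 sample per condition, an effect of the activator cannot be told apart from one of the preparation. In 5 kb tiles, the one centred 8.86 kb upstream had 0.75 and 0.80 in tSBE6-Vp64 and 0.55 and 0.37 in eGFP ESCs and differed by 0.32.

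Around SBE6 the populations had almost the same mean ratio. Counted as 100 kb upstream of the annotated TSS, SBE6 falls at position 28893641, in an intron of the antisense lincRNA gene 9530036O11Rik, and the coordinate of the TALE target was not given in the sources used here. Over the 217 probes within 10 kb, tSBE6-Vp64 had -0.15 and -0.16 and eGFP -0.14 and -0.16. The arrays overlapped, and the difference was -0.01 with a pooled SD of 0.01. Of the 209 probes read on all 4 arrays, 11 (5.26%) were apart and lower by at least 0.5 and 17 (8.13%) apart and higher. Both shares were below those over all probes. Of the 4 tiles of 5 kb from 90 to 110 kb upstream of Shh, 2 were apart and higher and 1 apart and lower. Their differences ran from -0.14 to 0.18. No 1 kb bin within 20 kb of SBE6 had a mean of 1 in either condition. Differences there ranged from -0.64, in a bin of 3 probes, to 0.34. In the 18 bins within 10 kb they ranged from -0.28 to 0.26. The highest was the bin that ends at the SBE6 position, with -0.15 and -0.18 against -0.44 and -0.42. The bin that starts there differed by -0.06, with overlapping arrays. The probe at the position printed above had -0.11 and -0.51 against -0.64 and -0.86, so that it differed by 0.44 although the window did not. The sign at SBE6 depended on the processing, with -0.03 on probes well above background and 0.03 in the deposited ratios as the extremes of 15 alternatives.

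Other enhancers of the desert showed differences of the order of the spread between arrays. SBE4, 350 kb upstream, had -0.18 and -0.19 in tSBE6-Vp64 and -0.18 and -0.14 in eGFP ESCs. SBE2/3, at 450 kb, had -0.14 and -0.18 against -0.12 and -0.13, and SBE5, at 780 kb in an intron of Lmbr1, had -0.72 and -0.84 against -0.74 and -0.64. The arrays were apart only at SBE2/3, where the difference was -0.03 and turned to 0.01 in a wider window. NE, a site between Shh and SBE6 that the study chose for its lack of enhancer marks, was 0.09 higher, with -0.09 and -0.03 against -0.16 and -0.14. It stayed above 0 in the 15 alternatives, from 0.02 to 0.16.

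**Figure D2:**
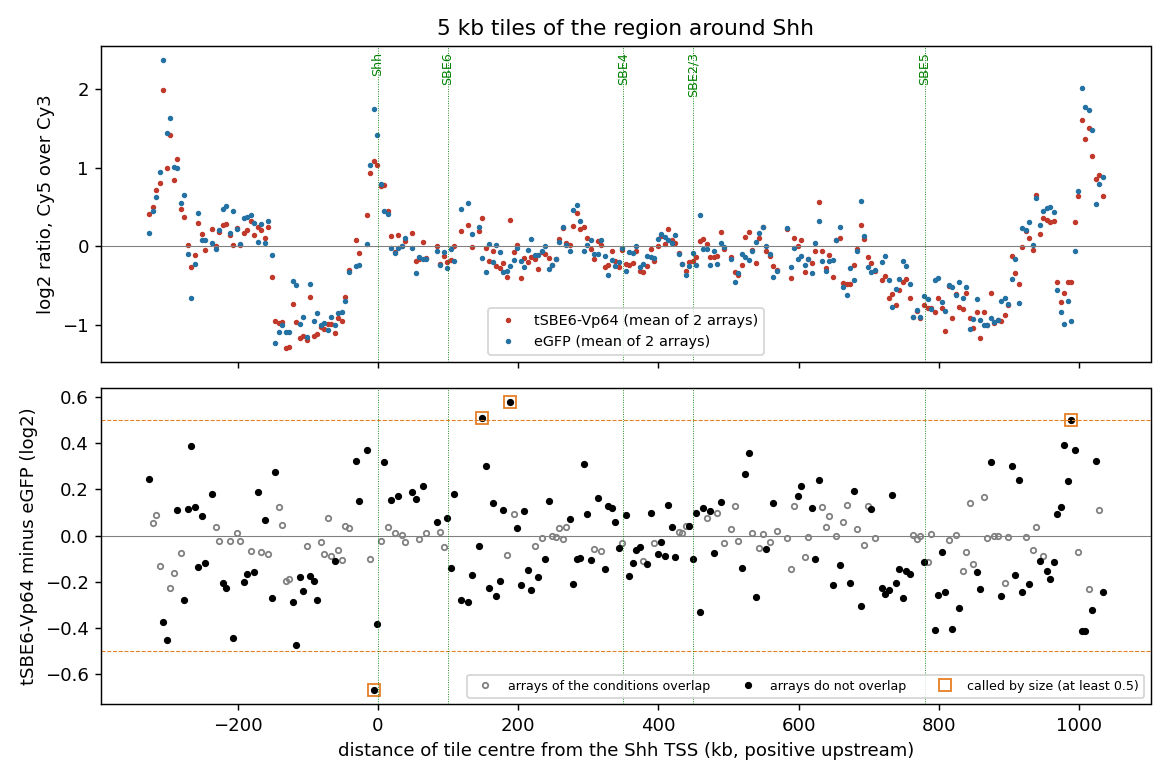
Mean log2 ratio (Cy5 over Cy3) of 5 kb tiles against the distance from the Shh TSS in tSBE6-Vp64 and eGFP ESCs (top), and the difference between them (bottom, filled where the arrays were apart, dashed lines at 0.5 either side of 0, squares around the tiles called by size). The tile at -0.67 lies over Shh, the 4 tiles around SBE6 lie from -0.14 to 0.18, and the called higher tiles are at 149, 189 and 989 kb.

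Between Shh and SBE6, the tiles tended to be slightly higher in tSBE6-Vp64 ESCs. Of 14 tiles from 5 to 90 kb upstream, 12 were above 0 and 7 were apart and higher, whereas 0 were apart and lower. Over all 963 tiles, 274 (28.5%) were apart and higher and 368 (38.2%) apart and lower, 66.7% together. The median difference of the 14 tiles was 0.05, against -0.03 over all tiles, and the largest was 0.32. From SBE6 to SBE4, 43 tiles had a median of -0.01, with 15 apart and higher and 17 apart and lower. Over the whole tiled region around Shh the mean difference was -0.03, the 30th lowest of the 39 regions.

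In this region, 3 tiles were called higher and 1, over Shh, lower. The tile from 28940000, centred 149 kb upstream of Shh in an intron of 9530036O11Rik, had 0.42 and 0.29 in tSBE6-Vp64 and -0.11 and -0.19 in eGFP ESCs. The tile from 28980000, centred 189 kb upstream in the same gene, had 0.33 on each tSBE6-Vp64 array against -0.13 and -0.36, and rests on 8 probes. The third, over exons of Nom1, had -0.44 and -0.46 against -1.06 and -0.84. All 3 were at or just past the threshold, with differences of 0.51, 0.58 and 0.50, and in tShh-Vp64 ESCs the tile at 149 kb had 0.27.

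The promoters around Shh differed by size and sign. En2, a homeobox gene of the midbrain-hindbrain boundary, had 1.43 and 1.41 in tSBE6-Vp64 and 2.03 and 1.65 in eGFP ESCs, a difference of -0.42. Without R1 of eGFP it was -0.23 and without R2 -0.61. Cnpy1, its neighbour, had 0.31 and 0.29 against 0.51 and 0.43. The promoter window of 9530036O11Rik lies largely in Shh and differed by -0.40, or by -0.24 without R1 of eGFP. Rnf32 had -0.56 and -0.59 against -0.46 and -0.39, a difference of -0.15 with the arrays apart. Rbm33 (-0.05), which encodes an RNA-binding protein, and Lmbr1 (0.01) had overlapping arrays. Nom1 differed by 0.06, and by -0.04 when the median over probes was taken. Mnx1, beyond Nom1 and outside the listed genes, had 1.44 and 1.38 against 1.93 and 1.54, a difference of -0.33.

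**Figure D3:**
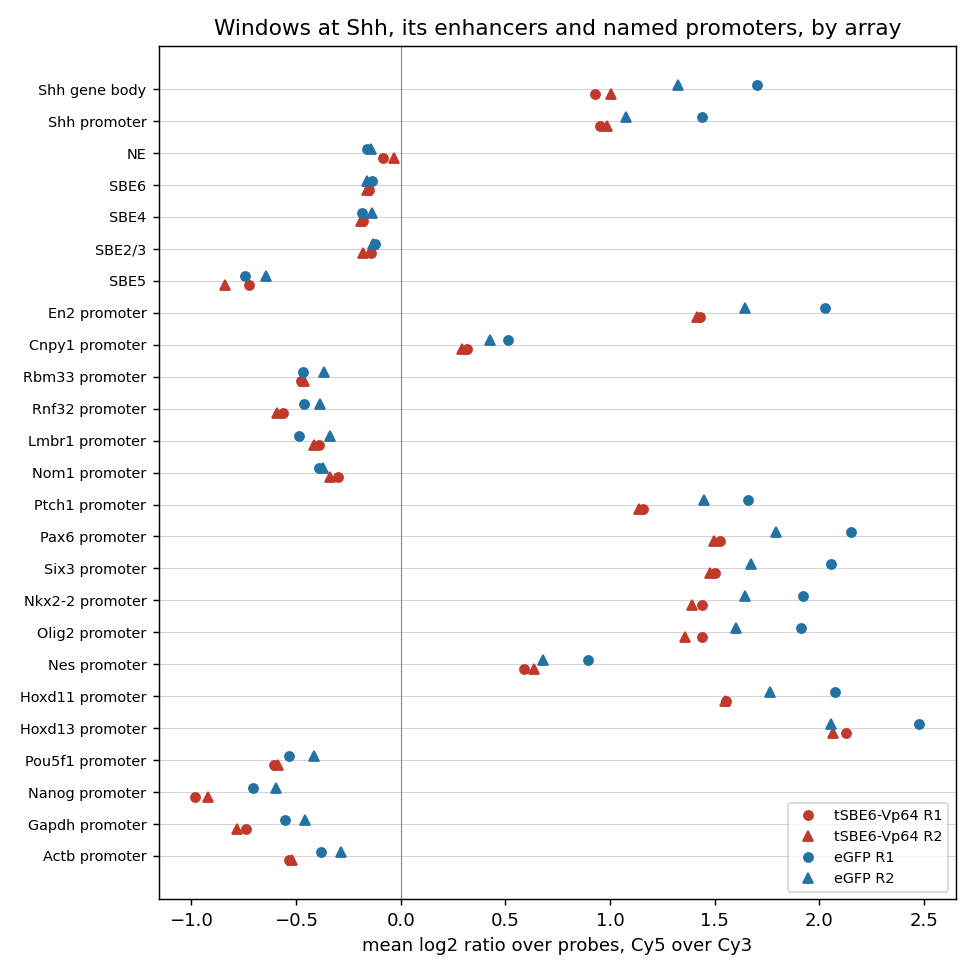
Mean log2 ratio (Cy5 over Cy3) of each of the 4 arrays in windows within 5 kb of a TSS, over the Shh gene body, or within 10 kb of an enhancer or NE. At Shh, En2 and Pax6 both eGFP arrays lie above both tSBE6-Vp64 arrays, whereas at SBE6 and SBE4 the 4 arrays lie between -0.19 and -0.14.

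Lower ratios in tSBE6-Vp64 ESCs were not confined to Shh. Of the 76 promoters with at least 20 probes, 52 (68.4%) were apart and lower, 5 (6.58%) apart and higher, and 0 called by size, with a median difference of -0.20. The Shh promoter, at -0.29, lay within the range of -0.46 to 0.32 of these promoters.

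In the hedgehog pathway, 2 of 17 listed genes had a promoter on the array, Shh and Ptch1, both apart and lower. Ptch1, the hedgehog receptor and a target of the pathway, had 1.16 and 1.14 against 1.66 and 1.45 in eGFP ESCs, a difference of -0.41. Of 13 neural and patterning genes, 9 were apart and lower and 1 apart and higher, with a median of -0.27, a share near the 68.4% of all promoters that were apart and lower. Pax6, a regulator of eye and forebrain development, had the lowest difference of all promoters (-0.46), with 1.53 and 1.50 against 2.15 and 1.79. Six3, a forebrain homeobox gene, had 1.50 and 1.48 against 2.06 and 1.67. Nkx2-2 and Olig2, which specify ventral progenitors of the neural tube in response to Shh, differed by -0.37 and -0.36. Sox4 was the member with a higher value, 0.43 and 0.45 against 0.36 and 0.23.

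In the list of the Hoxd cluster, a large polycomb domain of body patterning genes, with its neighbours Lnp and Mtx2, 11 of 12 promoters were below 0 and 5 were apart and lower, with a median of -0.18. Over all promoters 66 of 76 were below 0 and 68.4% apart and lower. Hoxd11 had 1.56 and 1.55 in tSBE6-Vp64 and 2.07 and 1.76 in eGFP ESCs. Hoxd13, the most posterior gene, had 2.13 and 2.06 against 2.48 and 2.05, so that its arrays overlapped.

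Of 6 pluripotency genes 5 were apart and lower, with a median of -0.18, against 52 of all 76 promoters. Nanog had -0.98 and -0.92 in tSBE6-Vp64 and -0.71 and -0.59 in eGFP ESCs, and Pou5f1 -0.61 and -0.59 against -0.53 and -0.41. Sox2 was the exception, with 0.07 on both tSBE6-Vp64 arrays against 0.06 and 0.04. The broadly expressed genes Gapdh and Actb, the 2 of 10 listed with enough probes, differed by -0.26 and -0.19. Of the imprinted pair, Igf2 overlapped (-0.01) and H19 differed by -0.06.

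Of the 9 tiles called lower, the lowest of all, -0.80, was 315 bp upstream of Odf3b and rests on 7 probes. The tile at the Fgf15 promoter came next, with 0.29 and 0.36 against 1.11 and 0.92, a difference of -0.68. Fgf15 encodes a growth factor of the developing brain and intestine. Nkx2-2, after Shh, had 1.53 and 1.40 against 2.30 and 1.84, a difference of -0.61. Tiles in Pax6 (-0.57), Nes (-0.55), an intermediate filament gene of neural progenitors, and Six3 (-0.50) followed, with 2 tiles outside Sox2, 8617 bp downstream (-0.57) and 3928 bp upstream (-0.54). Several of these depended on R1 of eGFP, and without it the differences were -0.38 at Nkx2-2, -0.36 at Nes, -0.39 at Pax6, -0.39 at Six3 and -0.44 upstream of Sox2, all under the size used for calls. The levels in tShh-Vp64 and tSBE2-Vp64 ESCs were 0.44 and 0.71 at Fgf15, 1.54 and 1.78 at Nkx2-2 and 1.32 and 1.74 at Pax6. Except for tShh-Vp64 at Pax6, these lay between the populations compared. Over the 9 tiles, tShh-Vp64 ESCs were nearer to tSBE6-Vp64 than to eGFP ESCs in 9, and tSBE2-Vp64 ESCs in 2. The tiles were picked for their difference between the populations compared, and the share over all tiles was not taken. Such positions and counts therefore add no support. All 9 were above 0 in eGFP ESCs, as were 418 of all 963 tiles, from 0.86 to 2.07, and between 0.29 and 1.46 in tSBE6-Vp64 ESCs. Their median CpG content was 2.90 per 100 bp, against 0.86 over all tiles.

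**Figure D4:**
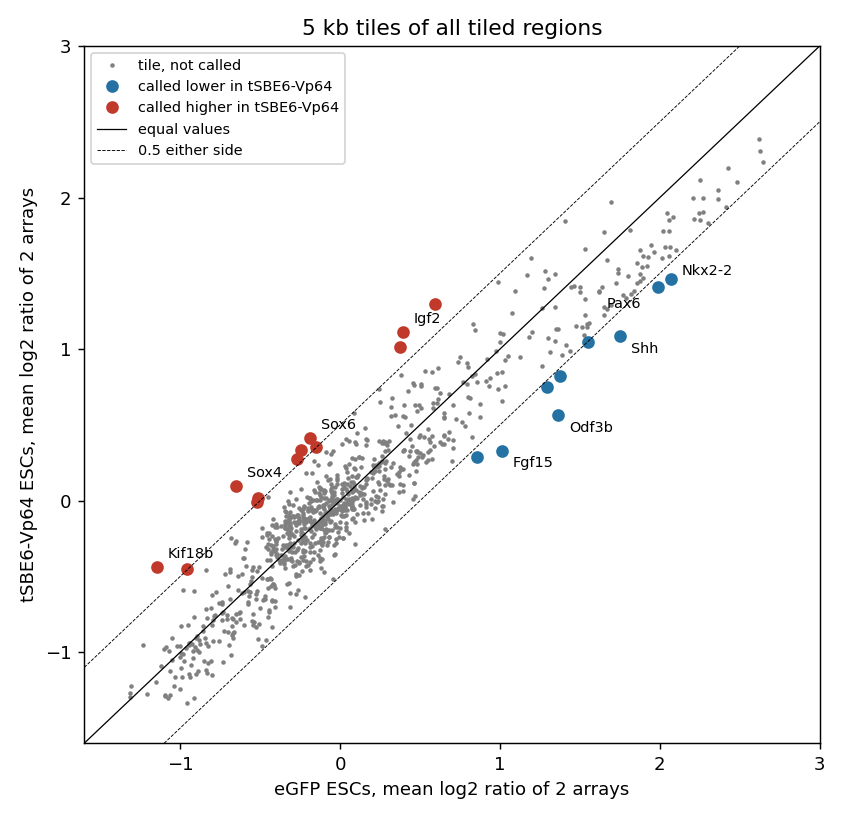
Mean log2 ratio of each of 963 tiles of 5 kb in tSBE6-Vp64 against eGFP ESCs, with the line of equal values and dashed lines 0.5 either side. The 9 tiles called lower lie at 0.86 or more in eGFP ESCs, and 9 of the 12 called higher lie below 0 there, as do 545 of all 963.

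Of the tiles called higher, 1 of 12 was a promoter tile, as were 1 of the 9 called lower and 69 of all 963. The largest difference was downstream of Sox4, a transcription factor of neural and lymphoid cells, with 0.13 and 0.07 in tSBE6-Vp64 and -0.63 and -0.67 in eGFP ESCs (0.75). A tile 2279 bp upstream of Igf2, in Igf2as, had 1.08 and 1.15 against 0.44 and 0.34 (0.72). A tile with the Kif18b promoter, a mitotic kinesin gene, had -0.42 and -0.46 against -1.22 and -1.07 (0.71). Sox6, a regulator of cartilage and red cell development, had 3 called tiles: 1 lay 2742 bp upstream of it, with 1.22 and 1.38 against 0.53 and 0.66, and 2 adjoining tiles in introns differed by 0.64 and 0.60. The others were in an intron of Npas3 (0.54), just beyond the 3′ end of Klf4 (0.51) and in a region far from annotated coding genes (0.55), besides those of the Shh region. In 9 of the 12, eGFP ESCs were below 0, as in 545 of all 963 tiles. The levels in tShh-Vp64 and tSBE2-Vp64 ESCs were -0.19 and -0.56 downstream of Sox4, 0.69 and 0.70 upstream of Igf2, and 1.05 and 0.38 upstream of Sox6. In 9 of the 12, tShh-Vp64 ESCs were nearer to tSBE6-Vp64 than to eGFP ESCs, and tSBE2-Vp64 ESCs were so in 0. As for the tiles called lower, the tiles were picked for their difference and no share over all tiles was taken, so these counts add no support. The median CpG content of the 12 tiles was 0.66 per 100 bp.

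In tiles called by size, the differences lay mainly in the Cy5 channel. In the tiles called lower, the median difference was -0.50 in the centred Cy5 signal and 0.06 in Cy3. In those called higher these were 0.65 and 0.01. In the Shh tile the values were -0.64 and -0.01. This did not hold at every locus outside the called tiles. The En2 promoter differed by -0.23 in Cy5 and 0.15 in Cy3, and a tile over Sox9 exons by -0.09 and 0.27.

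Tiles were then grouped by the mean ratio in tShh-Vp64 and tSBE2-Vp64 ESCs, on the same slide, so that the grouping used neither population compared. The median difference did not follow the level over its whole range, and was lowest in the groups of highest level. In the 152 tiles under -0.5 it was -0.08, and 103 were below 0. In the 47 tiles at 1.5 or more the median was -0.35, and 45 were below 0. In the 50 tiles from 1 to 1.5, which include Shh, the median was -0.24, and Shh, at -0.67, was the lowest but for the tile upstream of Odf3b. In the 385 tiles from -0.5 to 0 the median was 0.03, in the 259 from 0 to 0.5 it was -0.03 and in the 70 from 0.5 to 1 it was -0.07. The SD of the ratios over probes was 1.08 and 0.99 on R1 and R2 of eGFP, and 0.94 and 0.97 on those of tSBE6-Vp64. R1 of eGFP thus had the widest range. Across all tiles the least-squares slope of tSBE6-Vp64 on eGFP values was 0.889. Scatter between the populations also lowers such a slope, so it does not measure the range alone, and dividing by it can correct too far. After tSBE6-Vp64 values were divided by this slope, the difference was -0.43 over the Shh gene body, under the size used for calls, and -0.17 at the Shh promoter, where it had been -0.29. The Shh tile from 28785000 stayed past that size, at -0.53. In this setting 30 tiles were called, 19 higher and 11 lower.

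**Figure D5:**
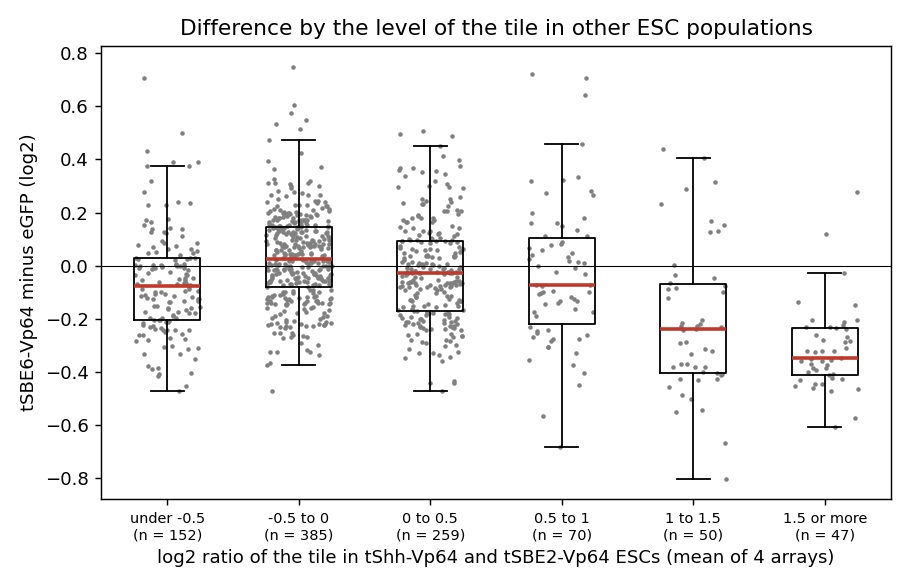
Difference, tSBE6-Vp64 minus eGFP, in 5 kb tiles grouped by their mean log2 ratio in tShh-Vp64 and tSBE2-Vp64 ESCs (grey points are tiles, boxes span the quartiles, red lines are medians, whiskers reach the furthest tile within 1.5 box lengths). The median is -0.08 in the lowest group of 152 tiles, 0.03 in the 385 tiles between -0.5 and 0, and -0.35 in the 47 tiles at 1.5 or more.

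CpG content moved with the difference at either level. Among tiles with a ratio of at least 1 in tShh-Vp64 and tSBE2-Vp64 ESCs, the 63 with at least 2 CpGs per 100 bp had a median difference of -0.37, and 62 were below 0. The 34 with fewer had a median of -0.17. Under 1, the medians were -0.23 in 58 CpG-rich tiles and 0.00 in the 808 others. The part of CpG content or of the range of the ratios in the difference at Shh was not tested.

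Against the spread between arrays, many tiles differed. In limma on the 8 arrays of the slide, 99 tiles (10.3%) were higher and 165 (17.1%) lower at an adjusted p of 0.05, where p measures only the spread between arrays of a preparation and not between cultures. The Shh tile differed by -0.67 (standard error 0.09, limma adjusted p = 0.00405), and the Shh promoter tile by -0.38 (standard error 0.13, adjusted p = 0.0647). The tile at the position of SBE6 differed by 0.08 (standard error 0.05, adjusted p = 0.274). All 21 tiles called by size passed, which adds no support, since they were picked by their difference on the same arrays. With only the 4 arrays compared, 32 higher and 22 lower tiles passed, and without R1 or without R2 of tSBE6-Vp64 the totals were 26 and 28.

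Against the spread between populations, the design had little power at a difference of 0.5, so that an absence of calls does not show that the populations were alike. The eGFP, tShh-Vp64 and tSBE2-Vp64 arrays share the label BioRep2, which tSBE6-Vp64 lacks. A difference between replicates therefore cannot be told apart from one of tSBE6-Vp64 in this fit. When tSBE6-Vp64 was set against the means of eGFP, tShh-Vp64 and tSBE2-Vp64 ESCs in limma, 0 of 963 tiles passed an adjusted p of 0.05 in either direction (0%), and 40 higher (4.15%) and 16 lower (1.66%) tiles had an unadjusted p of 0.05 or less, 5.82% of the tiles. The Shh tile had a difference of -0.35 from the other populations (standard error 0.21, adjusted p = 0.834), which ranged from 1.13 in tShh-Vp64 to 1.75 in eGFP ESCs. The Shh promoter tile differed by -0.18 (standard error 0.17, adjusted p = 0.834) and the tile at SBE6 by 0.02 (standard error 0.11, adjusted p = 0.967). The tile 149 kb upstream of Shh differed by 0.37 (standard error 0.18, adjusted p = 0.82). Without tShh-Vp64 ESCs in the fit, 14 tiles were higher and 3 lower, and with the deposited ratios 17 and 1.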

How the data were processed

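Nuclei were digested with MNase, and native H3K27me3 ChIP and input DNA were labelled and hybridised to a custom Agilent array (mm9). The authors scanned each dye separately and deposited spot intensity values from Feature Extraction 11.5.1.1, with no normalization between dyes. They also deposited log2 ratios with R1 and R2 combined, whose normalization is not given in the sources used here (limma is named in the submitters' notes). The study's methods describe arrays for another mark and not these.

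From the processed intensities, log2 Cy5 over Cy3 was computed per probe, control spots and outlier flags (514 to 1049 probes per array) were left out, and each array was centred on its median, without loess. Genes are from GENCODE for the same build, 1 model per symbol. Calls by size need a difference of 0.5. limma 3.58.1 (R 4.3.3) fitted the 963 tiles with lmFit and moderated them with eBayes, and p-values were adjusted by Benjamini-Hochberg. In the fit of population means the lone tSBE6-Vp64 sample is assumed to vary like the others. Both fits had been tested on simulated data with known shifts, where the population fit missed shifts of the call size that the array fit mostly found. The number of arrays limits the precision. Normexp used median spot and background signals, since the scans used here hold no mean spot signal.

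The comparison, windows and gene lists were chosen with earlier results of these data known. Named tiles were the 5 highest and 5 lowest called by size, adjoining ones counted once, and the remaining called tiles were named after their values were seen. Array numbers did not pair the samples, as deviations of same-numbered arrays correlated at -0.13 between tSBE6-Vp64 and eGFP and at -0.25 to 0.43 between all pairs of the 4 populations on the slide. Alternatives are in the closing section. Probe sequences were read from the reference genome.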

Additional observations from a re-analysis of the deposited data

How the results depend on the processing

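The 21 tiles called by size became 3 with the deposited ratios (2 higher, 1 lower). Those rest on size alone, since R1 and R2 are combined there. On probes well above background 11 were called, in 2 kb tiles 126, and in 10 kb tiles 3 (3 higher, 0 lower). A threshold of 0.25 gave 210 (74 higher, 136 lower), and a threshold of 1 gave 0. Leaving out 1 array gave 23 to 58, the highest without R2 of eGFP (12 higher, 46 lower). The cause was not tested. The share of higher calls, 57.1%, was 35.7% with normexp and 66.7% with the deposited ratios. On probes well above background it was 45.5%, and with outlier spots kept 46.2%. It was 35.2% at a threshold of 0.25 and 20.7% without R2 of eGFP. All 21 tiles kept their direction in the 13 alternatives on 5 kb tiles, but only those at Sox4 and Igf2 stayed at 0.5 or more in all 13, Six3 in 5, and Nom1 and the tile upstream of Sox2 in 6. Of the 13, the average over probes read on all 4 arrays was chosen after seeing the data.

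The Shh gene body ranged from -0.73 to -0.36 and the Shh promoter from -0.47 to -0.10 when 1 array was left out. SBE6 was 0.0071 with normexp, 0.0269 with the deposited ratios, -0.0320 on probes well above background, -0.0255 rescaled and 0.0114 as the median over probes. Among windows with the arrays apart, SBE2/3 turned to 0.0063 in the wider window and the Nom1 promoter to -0.0377 as the median over probes.

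Between populations, 0 tiles became 18 with the deposited ratios and 0 to 17 when a population or array number was left out, the highest without tShh-Vp64 ESCs. Between arrays, 264 tiles became 241 with the replicate block, 54 with only 4 arrays, and 26 to 299 when 1 array was left out. On 4 arrays the block gave 215, and 0 with crossed numbers, both chosen after seeing the data.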

Other observations

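Tiles at the ends of tiled regions held 6 of the 21 calls by size. Of the 78 first or last tiles of the 39 regions, 5 were called higher (downstream of Sox4, upstream of Igf2 and of Sox6, at the Kif18b promoter and in the region far from coding genes) and 1 lower (upstream of Odf3b), which is 7.69% of them, against 1.69% of the 885 other tiles. These tiles had a median of 31 probes, against 51. The SD of the differences was 0.30, against 0.20 in the others. The Shh tile and both tiles 149 and 189 kb upstream of it were not at an end. The pattern was noticed after the values were seen and was not tested.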
